A study of Mus musculus with 4 samples.

Results

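The BCL2 family decides at the outer membrane of the mitochondrion whether a cell survives or starts apoptosis, and 10 of its genes are described here in cultured mouse germline stem cells. They were taken by name: probes whose gene name in the files, or whose current symbol, was Bcl2, Bcl2l1, Mcl1, Bax, Bak1, Bcl2l11, Bbc3, Pmaip1, Bid or Bad. These names matched 19 of the 41174 probes on the array, and 17 of the 19 were among the 26393 probes well above background on at least 2 arrays. All 10 genes were among the 17537 features tested, where a feature is a gene, or an unnamed transcript, read by its brightest probe. For Bad that probe lies on the opposite strand.

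Total RNA was measured on 4 one-colour Agilent arrays. On 2 arrays the cells had been given 4-hydroxytamoxifen (4OHT) and on the other 2 DMSO, the solvent control, for 48 hours. Both groups were germline stem cells, which are spermatogonial stem cells grown from male testis, and both carried the same alleles. The design text writes them Roa-CreERT2, a recombinase that 4OHT activates (the growth protocol names a Rose-CRE-ERT2 knockin mouse), and CAG-CAT-3FlagNanos2-pA, a construct that makes tagged Nanos2 after recombination. The labels give no age or strain for the stem cells. The cells grew with GDNF and EGF at 20 ng/ml each and FGF2 at 10 ng/ml. They grew on mitomycin-treated fibroblasts from C57Bl6 embryos of day 13.5, and the feeder layer was taken off before RNA was extracted. No cells without the construct were given 4OHT, so the effects of Nanos2, of recombinase activity and of the compound cannot be told apart.

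Pro-survival members such as BCL2, BCL-XL (encoded by Bcl2l1) and MCL1 hold the effectors BAX and BAK (encoded by Bak1) in check. BH3-only members, among them BIM (Bcl2l11), PUMA (Bbc3), NOXA (Pmaip1), BID and BAD, bind the pro-survival members, and some also bind the effectors, through a short helix called BH3. When the effectors are free they form pores, cytochrome c leaves the mitochondrion, and caspases are activated; in the testis, germ cell number depends on this balance, and mouse testes that lack Bax keep surplus spermatogonia.

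The values of Bcl2, Mcl1, Bak1 and Bcl2l11 below depend on which probe is read, for Bcl2 in size alone. Probes of Bcl2, Bak1 and Bcl2l11 inside the coding sequence are therefore shown with the Bax probe, and no Mcl1 probe is shown. Each is as printed on the array, 5′ to 3′ in the sense of the transcript, with positions of the files on mm9. The Bcl2 probe lies at chr1:108608970-108609029 on the minus strand, and its capitals mark the end of BH1, one of the helical regions that line the groove for BH3. The Bak1 probe lies at chr17:27158232-27158291 on the minus strand, and its capitals mark the tryptophan, glycine and arginine codons of BH1. The Bcl2l11 probe is split over chr2:127972893-127983988 on the plus strand, 11096 bases for its 60 letters, and its capitals mark the glycine and aspartate codons of the BH3 core. The Bax probe is split over chr7:52721469-52721624 on the minus strand and has no capitals.
Bcl2: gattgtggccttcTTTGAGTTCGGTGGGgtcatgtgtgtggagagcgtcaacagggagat
Bak1: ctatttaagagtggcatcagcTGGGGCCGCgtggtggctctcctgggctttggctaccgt
Bcl2l11: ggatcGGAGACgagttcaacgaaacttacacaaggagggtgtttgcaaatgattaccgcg
Bax: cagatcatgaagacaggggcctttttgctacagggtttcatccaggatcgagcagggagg

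Promoter windows came from RefSeq on GRCm38.p6 and ran from 250 bases before to 50 after a transcript start. Of the 10 genes, 9 had windows, 15 in all, and they were searched on both strands for the FOXO motif TGTTTAC and for a p53 half-site, because FOXO factors and p53 are known to act on BH3-only genes. The FOXO letters were found in 2 of the 15 windows, one of Bcl2l11 and one of Bbc3, against 3.65% of all 32851 promoter windows. A p53 half-site was found in 1 window, that of Bax, against 8.36% of all windows. These 3 windows are shown because they hold the matches, which are in capitals; a match describes the letters and is not a site in use. Bcl2l11 is at chr2:128125788-128126087 on the plus strand with its match beginning 227 bases before the start, Bbc3 at chr7:16310011-16310310 on the plus strand with its match 167 bases before, and Bax at chr7:45466849-45467148 on the minus strand with its match 201 bases before.
Bcl2l11: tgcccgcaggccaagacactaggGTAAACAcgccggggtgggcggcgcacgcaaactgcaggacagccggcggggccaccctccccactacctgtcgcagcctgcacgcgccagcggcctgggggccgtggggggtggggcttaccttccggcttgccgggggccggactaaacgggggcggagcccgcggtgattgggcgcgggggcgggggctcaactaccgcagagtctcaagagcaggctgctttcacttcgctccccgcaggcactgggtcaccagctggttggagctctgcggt
Bbc3: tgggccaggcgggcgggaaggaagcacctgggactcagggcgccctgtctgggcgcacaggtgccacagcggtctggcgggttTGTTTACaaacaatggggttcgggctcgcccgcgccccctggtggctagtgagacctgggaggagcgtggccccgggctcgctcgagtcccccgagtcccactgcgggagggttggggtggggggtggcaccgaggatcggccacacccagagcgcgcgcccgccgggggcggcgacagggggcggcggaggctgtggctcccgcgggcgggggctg
Bax: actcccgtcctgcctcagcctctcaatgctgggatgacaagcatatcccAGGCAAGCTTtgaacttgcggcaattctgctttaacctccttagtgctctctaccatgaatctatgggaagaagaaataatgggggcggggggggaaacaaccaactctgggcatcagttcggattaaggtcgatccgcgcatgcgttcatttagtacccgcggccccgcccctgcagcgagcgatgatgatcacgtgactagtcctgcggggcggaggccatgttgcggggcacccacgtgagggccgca

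Nanos2, the induced gene, read 904 and 1070.1 intensity units in 4OHT cells and 353 and 352 in DMSO cells. The rise was 1.56 ± 0.10 in log2 units (limma adjusted p = 0.000842), where the error is the fit's standard error with 2 arrays per group, as it is for every difference below. The arrays correlated at 0.996 within 4OHT, at 0.995 within DMSO and at 0.945 to 0.952 between the groups, and 62.1% to 65.9% of spots were well above background. Groups were separated over most of the array: 69.5% of the 17537 features passed an adjusted p of 0.05, and 86.5% had no overlap between the groups' arrays. The median difference of all features was 0.12 and their median absolute size 0.55. Counts of members are read against these shares.

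Markers of other cells moved with the groups. Of 24 embryonic fibroblast markers 23 rose and none fell, and their summed level, in multiples of each array's 75th percentile, was 778 and 737 in 4OHT cells and 390 and 448 in DMSO cells. In this list Thbs1, a matricellular protein gene, had the largest difference (1.49 ± 0.11) and Col1a1, a collagen gene, the smallest (0.26 ± 0.09, adjusted p = 0.0513). Of 16 germ cell markers 11 fell and 2 rose, with a summed level of 125 and 129 in 4OHT cells and 165 and 164 in DMSO cells, and Nanos3 was lowest at -4.76 ± 0.13. Among those that fell, Ret was kept through its DMSO arrays alone. Ddx4 (-0.17 ± 0.08), Sall4 (-0.15 ± 0.07) and Mael (0.13 ± 0.08) did not pass, and Tex101, the brightest of the list, fell by 0.25 ± 0.06. Dazl, which read 7776 and 8075 in 4OHT cells and 21753 and 22427 in DMSO cells, had the largest part in the fall of the sum. The 2 that rose are the induced Nanos2 and Utf1 (0.91 ± 0.14). Without Nanos2, 11 of 15 fell and 1 rose. Sums were then 124 and 127 in 4OHT cells and 164 and 163 in DMSO cells. Of 10 macrophage and blood markers 7 rose and none fell, with sums of 37.1 and 37.9 in 4OHT cells and 16.9 and 18.8 in DMSO cells. Most of each sum was Lyz2 alone, which read 23096 and 23791 in 4OHT cells and 10921 and 12517 in DMSO cells. Ptprc (0.02 ± 0.07), Cd68 (0.12 ± 0.07) and Pecam1 (-0.47 ± 0.21) did not pass, and Itgam was too dim to test. Of 9 Sertoli and Leydig markers 5 rose, among them Cldn11, a tight junction gene, at 3.59 ± 0.11. The 2 that fell were Wt1 (-0.88 ± 0.10) and Cyp17a1 (-0.43 ± 0.11), and Rhox5 (-0.02) and Star (-0.12) did not pass. Sums of this list were 6.30 and 6.38 in 4OHT cells and 3.06 and 3.22 in DMSO cells. Amh, Gata4, Fshr, Cyp11a1 and Hsd3b1 were not well above background on enough arrays. In bulk RNA, fewer cells of a type and less RNA per cell cannot be told apart. The part of the marker shift in the values below was not tested.

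By their brightest probes, 7 of the 10 genes rose, 1 fell and 2 did not pass, where 69.5% of all features were called; 40.5% of features were called higher and 29.0% lower. For 9 of the 10 the groups' arrays did not overlap, against 86.5% of features. The count of called members, 8 of 10, is near the share of the array. Of the 7 that rose, Mcl1, Bak1 and Bcl2l11 each had another probe with a difference below 0. The median difference of all 10 genes was 0.49, against 0.12 over all features. Pro-survival and pro-death members both had members that rose: 3 of 3 with a median of 0.54, and 4 of 7 with a median of 0.36. The counts and medians of the 10 and of the 7 read Bad by its opposite-strand probe.

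**Figure D1:**
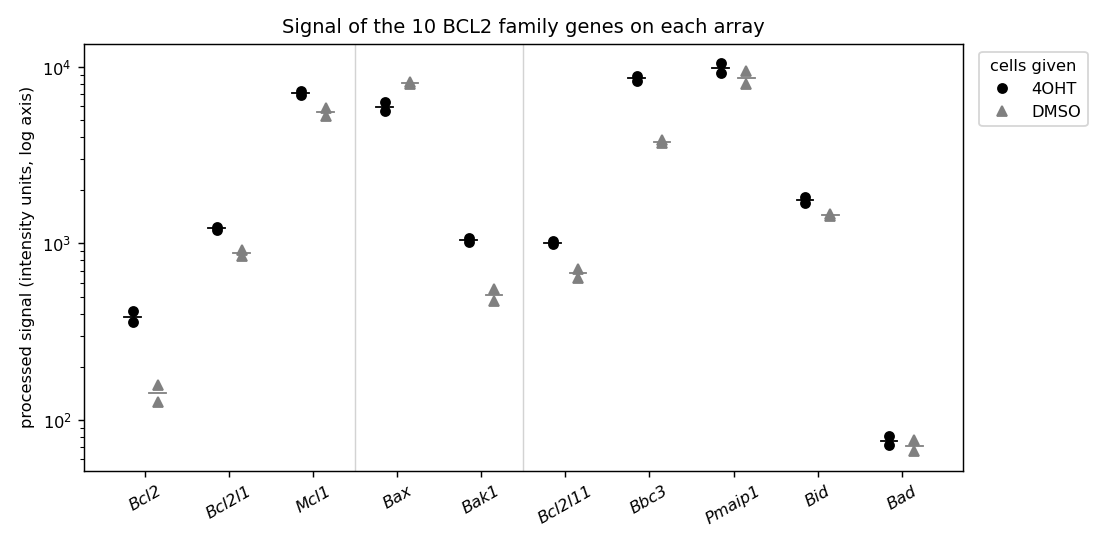
Processed signal of the brightest probe of each gene on each array, on a log axis in intensity units; circles are the 2 arrays of 4OHT cells, triangles the 2 of DMSO cells, and bars the group means on the log scale. Bax is lower in 4OHT cells, the points of Bad, from the opposite-strand probe, overlap, those of Pmaip1 cross before scaling, and the other genes are higher in 4OHT cells. Heights of different genes are not comparable.

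All 3 pro-survival genes rose, where 40.5% of all features were called higher. Bcl2 read 413 and 357 in 4OHT cells and 127 and 157 in DMSO cells. Both 4OHT arrays stood well above both DMSO arrays, and the difference was 1.52 ± 0.14, or 2.86-fold (limma adjusted p = 0.00153). In size it was above 90.5% of all features. The BH1 probe printed above read 153 and 119.8 in 4OHT cells and 61.9 and 76.3 in DMSO cells, again with no overlap, and rose by 1.05 ± 0.17 (adjusted p = 0.00703 over probes). The brightest probe, at chr1:108434793-108434852, was spotted repeatedly, and the SD between its spots on 1 array was 0.037 to 0.069 on the log2 scale.

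Bcl2l1, whose main product BCL-XL guards the mitochondrion, read 1183 and 1245 in 4OHT cells and 846 and 918 in DMSO cells. The arrays did not overlap, and the difference was 0.54 ± 0.07 (adjusted p = 0.00409). Its other probes gave 0.41 ± 0.07 and 0.44 ± 0.10, so all 3 rose. Scaling on the spike-in controls left 0.37 with an adjusted p of 0.133.

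Mcl1, a pro-survival gene whose protein turns over quickly, read 7263 and 6934 in 4OHT cells and 5251 and 5853 in DMSO cells. The groups were apart, by 0.43 ± 0.08 (adjusted p = 0.0106). A second Mcl1 probe read 1666 and 1564 in 4OHT cells and 1801 and 1973 in DMSO cells, a difference of -0.15 ± 0.08 (adjusted p = 0.184 over probes). The call of Mcl1 therefore rests on its 3′ probe, and it was also lost under spike-in scaling, with the mean of probes, and without the first 4OHT array.

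The effectors differed from each other. Bax read 5597 and 6316 in 4OHT cells and 7988 and 8177 in DMSO cells. Both 4OHT arrays were the lower, and Bax fell by 0.37 ± 0.08 on the log2 scale to 0.776 of its DMSO level (adjusted p = 0.0191). By brightest probes it was the only one of the 10 that fell. Spots of its single probe varied by an SD of 0.033 to 0.050 on 1 array. Its adjusted p lay between 0.0536 and 0.0676 when the first 4OHT array or either DMSO array was left out and was 0.0670 with no filter on dim probes.

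Bak1, the other effector, read 1075 and 1021 in 4OHT cells and 469 and 548 in DMSO cells by its 3′ probe. The groups lay apart by 1.12 ± 0.10, or 2.18-fold (adjusted p = 0.00138). The BH1 probe printed above read 164 and 167 in 4OHT cells and 201 and 197 in DMSO cells, a difference of -0.19 ± 0.07 (adjusted p = 0.0671 over probes). The direction for Bak1 thus depends on the probe.

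Of the 5 BH3-only genes 3 rose, where 40.5% of all features were called higher. Bbc3, encoding PUMA, which binds all pro-survival members, read 8889 and 8338 in 4OHT cells and 3702 and 3826 in DMSO cells. Its arrays were close within each group and far apart between them, with a difference of 1.27 ± 0.07, or 2.41-fold (adjusted p = 0.000657). No other probe of Bbc3 is on the array, and this one lies at chr7:16903403-16903462. Its adjusted p stayed between 1.42e-06 and 0.0096 over 15 alternatives.

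Bcl2l11, encoding BIM, gave opposite results by probe. The 3′ probe, at chr2:127988051-127988110, read 1033 and 987 in 4OHT cells and 640 and 718 in DMSO cells, and rose by 0.65 ± 0.08 (adjusted p = 0.00346). The BH3 probe printed above read 52.0 and 53.3 in 4OHT cells and 182 and 161 in DMSO cells, and it fell by 1.62 ± 0.09 in log2 units (adjusted p = 0.000823 over probes). Neither probe's groups overlapped. Of the 3 members with 2 or more called probes it was the only one called in both directions, against 13.9% of such genes on the array.

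Bid, which links death receptors to the mitochondrion once caspase 8 has cut it, read 1694 and 1831 in 4OHT cells and 1467 and 1423 in DMSO cells. The difference was 0.36 ± 0.07 (adjusted p = 0.0131), with no overlap. Without the second 4OHT array it was 0.31 with an adjusted p of 0.0626, and with spike-in scaling 0.19 with an adjusted p of 0.457. Median scaling also removed the call, at 0.18.

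Pmaip1 and Bad did not pass. Pmaip1, encoding NOXA, which binds MCL1, read 10433 and 9241 in 4OHT cells and 7930.0 and 9445 in DMSO cells, a difference of 0.26 ± 0.12 (adjusted p = 0.123). Bad, whose protein is held inactive by growth factor signalling through phosphorylation, lies on the plus strand, as does its probe at chr19:7016618-7016677. That probe read 28.7 and 18.1 in 4OHT cells and 23.6 and 13.9 in DMSO cells, which overlap, was well above background on 1 array of each group and gave 0.41 ± 0.36. The brightest probe named Bad, which stood for the gene in the counts, lies on the opposite strand at chr19:7025594-7025653, so its values are not those of the Bad transcript. It read 71.8 and 81.0 in 4OHT cells and 66.4 and 77.3 in DMSO cells, with 0.17 ± 0.11 (adjusted p = 0.241), and neither probe was called.

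**Figure D2:**
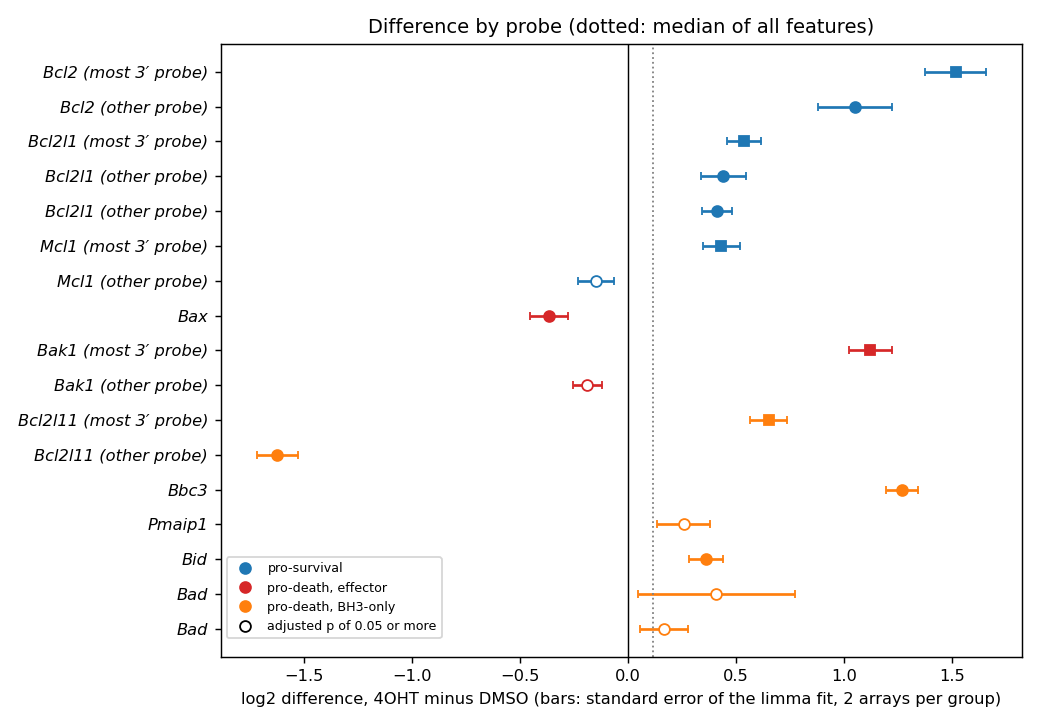
Log2 difference (4OHT minus DMSO) of each kept probe of the 10 genes, with bars of 1 standard error from limma's fit over probes; squares are the most 3′ probe of a gene with several, filled points passed an adjusted p of 0.05, and the dotted line is the median of all features at 0.12. Bcl2l11 lies at 0.65 by one probe and -1.62 by the other, and Bak1 at 1.12 and -0.19.

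Of the 17 kept probes 10 rose, 2 fell and 5 did not pass, against 67.3% of all kept probes called, 36.4% higher and 30.8% lower. A further 2 probes were not well above background on any array and were not tested. One is a Bcl2 probe that read 3.12 and 4.09 in 4OHT cells and 3.32 and 3.80 in DMSO cells. The other is a Bcl2l11 probe that read 12.9 and 14.6 in 4OHT cells and 12.5 and 21.6 in DMSO cells. Neither supports a direction.

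Within 1 gene, the most 3′ probe was compared with each other probe on the same array, a difference that a constant per array cannot change. Over 8744 such pairs from 6247 genes, 37.3% were called, 30.5% with the 3′ probe higher in 4OHT relative to the other and 6.83% with it lower, and 72.4% lay above 0 with a median of 0.22. The shift was 0.02 in 621 pairs up to 200 bases apart in the genome, 0.29 in 3079 pairs 1001 to 5000 bases apart, and 0.32 in 1626 pairs over 20000 bases apart. Centred on the mean of the 4 arrays, the median was 0.13 and 0.096 on the 4OHT arrays and -0.13 and -0.090 on the DMSO arrays. This array-wide shift moved with the groups, and its part in the results of members was not tested.

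Of 6 member pairs 4 were called, all with the 3′ probe higher, against 37.3% of all pairs called and 30.5% with it higher. The Bcl2l11 pair differed by 2.27 ± 0.15 (limma adjusted p = 0.00309 over pairs), at the 99.4th percentile of pairs 1001 to 5000 bases apart. The Bak1 pair differed by 1.31 ± 0.13 (adjusted p = 0.00483), at the 93.9th percentile of the same range. Mcl1 followed at 0.58 ± 0.09 (adjusted p = 0.0113), at the 71.8th percentile, and Bcl2 at 0.46 ± 0.10 (adjusted p = 0.0258), at the 59.8th of pairs over 20000 bases apart. The Bcl2l1 pairs, which share their 3′ probe, were at 0.12 ± 0.09 and 0.10 ± 0.09 and were not called.

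**Figure D3:**
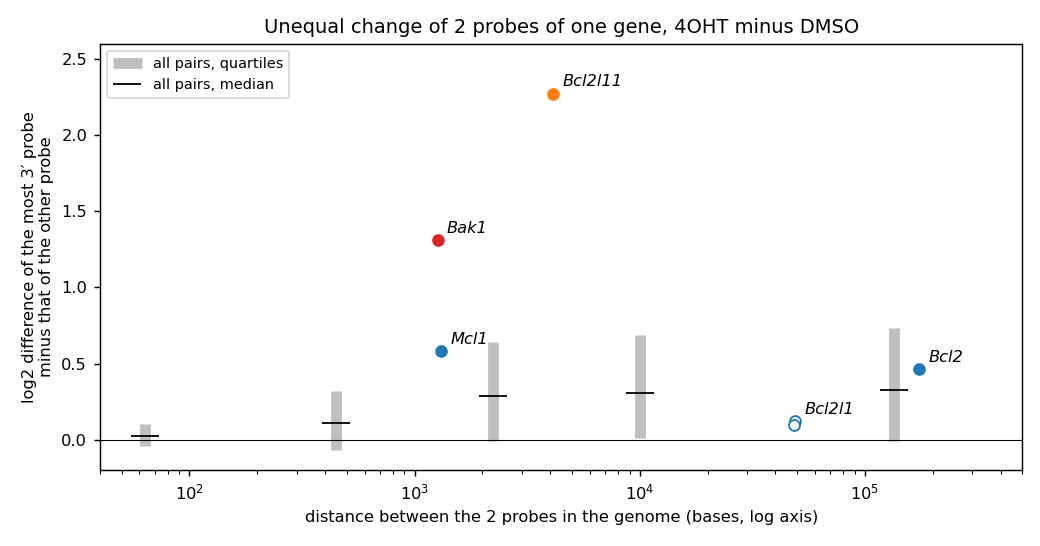
Difference between the most 3′ probe and another probe of the same gene, 4OHT minus DMSO on the log2 scale, against the distance between the probes in the genome in bases on a log axis; grey bars are the quartiles and black lines the medians of all pairs in 5 ranges of distance, and filled points passed an adjusted p of 0.05 over pairs. Bcl2l11 at 2.27 and Bak1 at 1.31 lie above the upper quartile of their range, and the 2 Bcl2l1 pairs near 0.1.

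When each gene was read by its most 5′ kept probe, an alternative chosen after the data were seen, 64.1% of features were called. Bcl2 (1.05), Bcl2l1 (0.41), Bbc3 (1.27) and Bid (0.36) rose, and Bax (-0.37) and Bcl2l11 (-1.62) fell. Mcl1 at -0.15 and Bak1 at -0.19 did not pass. By this reading 4 members rose and 2 fell. Bbc3, Bax, Bid and Pmaip1 have 1 probe each, so their values carry no such check.

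**Figure D4:**
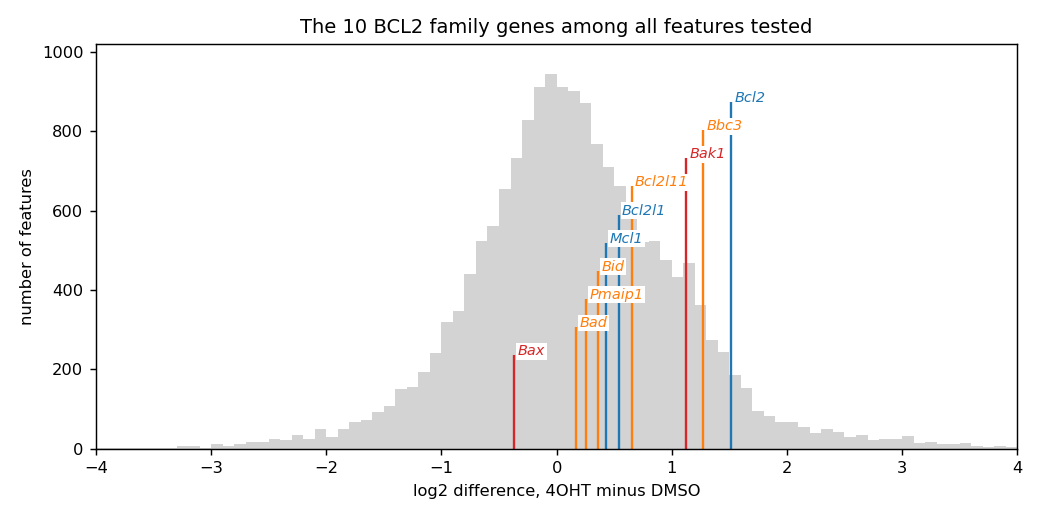
Histogram of the log2 difference (4OHT minus DMSO) of all 17537 features, with a line at the value of each of the 10 genes read by its brightest probe; the heights of lines have no meaning. Bax lies below 0, and Bak1, Bbc3 and Bcl2 lie above 1. Bad is drawn by its opposite-strand probe.

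Genes listed with the same family outside the 10, among them Bclaf1, which is not a BCL2 homologue, moved both ways. Of 12 tested, 6 rose, 4 fell and 2 did not pass, with a median of 0.15, against 40.5% of all features higher and 29.0% lower. When any 1 array was left out, 4 were higher and 2 or 3 lower, and 4 and 2 with the replicate block. Both pro-survival genes rose: Bcl2l2, encoding BCL-W, which is needed for spermatogenesis in mice, by 0.77 ± 0.10, and Bcl2a1b by 1.23 ± 0.14, a gene with near-identical copies that the probe may not separate. Among 6 pro-death genes Bcl2l14 rose by 1.90 ± 0.07, Bnip3 by 0.26 ± 0.06 and Bmf by 0.24 ± 0.07. A second Bcl2l14 probe was at 0.44 and also rose, and a second Bmf probe was at -0.03. Without any 1 array, 1 pro-death gene was called higher and 1 lower in place of 3 and 2.

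Bik, a BH3-only gene, had the largest difference in the family. It read 40.1 and 59.8 in 4OHT cells and 445 and 399 in DMSO cells, and it fell by 3.03 ± 0.22 in log2 units (limma adjusted p = 0.000971). Bnip3l fell by 0.22 ± 0.06, and Bok, an effector homologue, was at 0.06 ± 0.08 and did not pass. Of 4 genes listed with less settled roles Bcl2l15 rose by 1.11 ± 0.10, Bcl2l12 fell by 0.57 ± 0.06 and Bcl2l13 by 0.25 ± 0.08. Bclaf1, counted with them though no homologue, was at -0.21 ± 0.07 by its brightest probe (adjusted p = 0.0502). The 4 Bclaf1 probes ranged from -1.09 to -0.21, and 3 of them were called lower. Bcl2a1c, Bcl2l10 and Hrk were too dim to test.

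Downstream, 14 genes of mitochondrial release and the apoptosome split into 4 that rose, 6 that fell and 4 that did not pass, with a median of 0.14. Over all features 40.5% were called higher and 29.0% lower, with a median of 0.12. Casp9, the caspase that the apoptosome activates, rose by 1.04 ± 0.08, Apaf1, its scaffold, by 0.86 ± 0.11, and Vdac2, a channel that binds BAK, by 0.64 ± 0.08. Cyct, the testis cytochrome c, fell by 1.46 ± 0.06 and Endog, a nuclease, by 0.76 ± 0.07. The 3 Apaf1 probes ranged from -0.20 to 0.86 and only the highest passed.

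Caspases and their substrates numbered 3 that rose, 3 that fell and 5 that did not pass among 11, with a median of 0.09. The array's shares were 40.5% higher and 29.0% lower, and its median was 0.12. Casp12 rose by 1.37 ± 0.07, Cflar, a blocker of caspase 8, by 1.29 ± 0.12 and Casp8 by 0.91 ± 0.06. Parp1, a caspase substrate in DNA repair, fell by 0.93 ± 0.11 and Casp2 by 0.43 ± 0.06. Of 7 Cflar probes, ranging from -0.45 to 1.29, 4 rose and 1 fell.

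Of 5 inhibitors of apoptosis well above background in both groups, 2 rose, 2 fell and 1 did not pass, with a median of -0.13. For all features the shares were 40.5% higher and 29.0% lower, and the median 0.12. Birc5, encoding survivin, which also acts in cell division, read 2362 and 2357 in 4OHT cells and 12944 and 13327 in DMSO cells and fell by 2.40 ± 0.06. Xiap, a direct caspase inhibitor, fell by 0.87 ± 0.14. Birc3 rose by 1.15 ± 0.08 and Birc6 by 0.24 ± 0.07. Naip2 was kept through its 4OHT arrays alone and is left out of this count; not being well above background in DMSO cells, it has only a bound, at least 1.80-fold higher in 4OHT cells.

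Of 30 upstream regulators well above background in both groups, 7 rose, 15 fell and 8 did not pass, with a median of -0.21. Ddit3, encoding the stress factor CHOP, rose by 1.53 ± 0.07 and Myc by 1.39 ± 0.14. Trp63, kept through its 4OHT arrays alone and left out of the count, was at least 2.56-fold higher in 4OHT cells. Pim2, a survival kinase, fell by 1.42 ± 0.11 and E2f1 by 1.36 ± 0.08. Foxo1, named after its value was seen, fell by 1.31 ± 0.06, and Trp53, likewise, was at 0.03 ± 0.15 by its brightest probe and did not pass, while its other probe, at -0.42, was called lower. Cdkn1a, a p53 target that halts the cell cycle and no member of these lists, rose by 1.05 ± 0.07. Over the 72 genes of all these lists that were well above background in both groups, 22 rose, 30 fell and 20 did not pass, against 40.5% and 29.0% of all features.

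**Figure D5:**
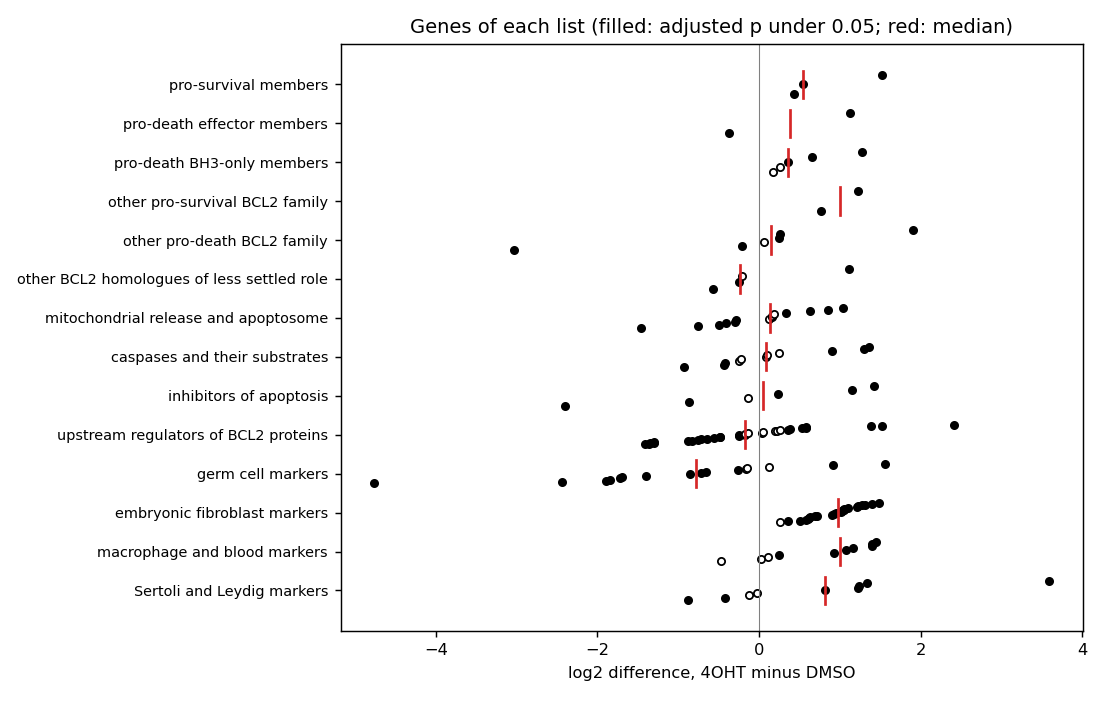
Log2 difference (4OHT minus DMSO) of each tested gene in the BCL2 family, apoptosis and marker lists; filled points passed an adjusted p of 0.05 and red lines are list medians, among them 0.54 for the pro-survival members, 0.98 for fibroblast markers and -0.78 for germ cell markers. The medians drawn include Naip2 and Trp63. Bclaf1 is drawn among the homologues but is not one, and Bad is drawn by its opposite-strand probe. Points of Naip2 and Trp63 are fitted values, and only the bounds in the text hold for them.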

How the data were processed

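The deposited scanner files hold spot intensity on a linear scale, with background subtracted and detrended by Feature Extraction. Its grid placement version in the file headers is 10.7.3.1, and the submitters' processing notes name version 9.5. A deposited value table of log2 values differed from the log2 of the processed signal by a fixed offset on each array (0.362 and 0.356 for 4OHT, 0.290 and 0.275 for DMSO) and served as an alternative.

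Controls were dropped, as were 60 to 71 outlier spots on each array, and repeat spots were averaged. The processed signal was put on a log2 scale, with the array's own 75th percentile (705 to 744) set to 0. A probe was kept if 2 or more of the 4 arrays held it well above background; the brightest stood for its gene. The detection limit, the smallest signal called well above background, was 15.0 to 19.5, and no spot was saturated (0 per array). All arrays were on 1 slide, 4OHT at positions 2 and 4, DMSO at 1 and 3. Symbols came from a RefSeq table of GRCm38.p6 (33636 of 41174 probes matched; 7538 kept the file's name).

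The comparison used limma 3.58.1 under R 4.3.3 with group as the only term. Adjustment was Benjamini-Hochberg over all features, or over all probes or probe pairs where said, with a threshold of 0.05. A run on simulated arrays changed far fewer features than are called here, so it gives no error rate for these data. The labels do not say that replicates are separate cultures, so the p-values rest on the spread of these arrays alone, which may be technical. The number of arrays limits the precision. Deviations of arrays with equal replicate numbers correlated at -0.045, which cannot show whether replicates were prepared in pairs. A group not well above background on either array has only a bound: the bright group's mean is divided by a dim-group mean in which each array counts at its detection limit, or at the probe's own signal where that is higher. Members and lists were chosen with earlier results of these data known. The text names all members and other family genes, Nanos2, Cdkn1a and the extreme markers. Of each other list it names up to 5 passing genes of the largest difference. Markers that did not pass, went against their list or weighed in a sum were named after their values were seen, as were Foxo1 and Trp53. List counts in the Results leave out genes kept through 1 group alone (not Ret, a germ cell marker), a choice made after seeing the data. Counts under the alternatives keep them. Alternatives were other background correction (normexp, offset 50), scalings, filters, probe choices, the value table, a replicate block and leaving out each array. Protein sequences were not used here.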

Additional observations from a re-analysis of the deposited data

How the results depend on the processing

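Bcl2 and Bbc3 kept their direction and call under all 15 alternatives. With the replicate number as a block all 8 member calls held, with 6572 features higher and 4526 lower, against 7107 and 5079 without it. Leaving out 1 array at a time gave 0.36 to 0.50 for Mcl1, -0.45 to -0.28 for Bax, 0.31 to 0.42 for Bid, and 0 to 1 members lower; Mcl1 lost its call without the first 4OHT array, Bid without the second 4OHT or second DMSO array, and Bax without the first 4OHT or either DMSO array. Spike-in scaling took the calls of Bcl2l1 (0.37), Mcl1 (0.26) and Bid (0.19), and median scaling took that of Bid (0.18). With spike-in scaling 4 members and 14 of 74 context genes were higher, against 24 context genes in the main setting. Counts of context genes, inhibitors of apoptosis and upstream regulators in this paragraph include Naip2, Trp63 or both, kept through their 4OHT arrays alone. Without these 2 genes, 22 of 72 context genes were higher in the main setting. Among all calls, 58.3% were higher in the main setting, 46.7% with median scaling (5774 higher, 6582 lower) and 48.9% with spike-in scaling (4789 and 4998), and the median of all features was 0.12, -0.06 and -0.05 in these settings; relative to the main median the members' median was 0.37. With no filter on dim probes Bax (-0.37) and Bid (0.36) missed the threshold, leaving 0 members lower, and 38% of features were called. Averaging each gene's probes, Bcl2l11 turned to -0.49, Mcl1 missed at 0.14 and 2 members were lower. With the most 5′ kept probe, chosen after seeing the data, Mcl1 (-0.15), Bak1 (-0.19) and Bcl2l11 (-1.62) turned, with 4 members higher and 2 lower. Of the other family genes, 4 were higher and 2 lower with spike-in scaling or no filter, and 4 and 5 with median scaling, against 6 and 4. Leaving out 1 array, 1 to 2 of 6 inhibitors of apoptosis were higher, against 3. With quantile or median scaling 5 caspase genes were lower, against 3; with spike-in scaling 2 apoptosome genes and 3 upstream regulators were higher, against 4 and 8. The cause of these changes was not tested. Signals near background limit the second Bad probe, and groups of 2 arrays are too small for a search for outlying samples.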
